A study of Mus musculus with 10 samples.

Results

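Urocortin 3 and the genes of its receptor system were followed across delta, beta and alpha cells of the mouse islet. The 6 genes were taken by name, with earlier results of these data known, and not by a cutoff on a measured value. They are the peptide genes Ucn3, Ucn and Crh, the receptor genes Crhr1 and Crhr2, and Crhbp, which encodes a secreted binding protein. All 6 have a row among the 19213 gene entries of the deposited table.

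Urocortin 3 belongs to the corticotropin-releasing factor (CRF) family of peptides, together with CRF itself (Crh), urocortin (Ucn) and urocortin 2 (Ucn2). The family signals through a pair of class B G protein-coupled receptors that raise cyclic AMP. CRF prefers the type 1 receptor (Crhr1), urocortin binds both, and urocortin 3 acts on the type 2 receptor (Crhr2). In the mouse islet urocortin 3 is known as a product of mature beta cells that is stored and released with insulin and acts on delta cells, whose somatostatin in turn restrains insulin and glucagon release.

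RNA was sequenced from endocrine cells sorted by fluorescence from the islets of adult mice. All mice carried 3 transgenes: mIns1-H2b-mCherry, a nuclear red reporter under the Ins1 promoter, a floxed YFP allele, and either Sst-Cre, which turns YFP on in delta cells, or Gcg-Cre, which turns it on in alpha cells. Each islet pool held 10 to 12 animals of 1 sex and was kept overnight in RPMI medium with 5.5 mM glucose and 10% serum before dissociation. Delta cells gave 2 libraries (1 male and 1 female), beta cells 5 (2 male and 3 female) and alpha cells 3 (2 male and 1 female). Beta cells came from the same islets as the delta or the alpha cells, and there is no wild-type or treated group. The Cre and mCherry reporters follow hormone promoters, so each group is what the reporter gate held. Libraries are named below by cell type, number and sex.

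Values are in RPKM, the reads of a gene divided by its length and by the library's total, which allow levels of different genes to be set side by side per length. Library totals, recovered from the steps between low values, were 16688097 to 26684086 reads, and 7 hormone genes took 9.8% to 31.8% of them. Each sort held low levels of the other sorts' hormones: Ins1 in delta libraries averaged 1.02% of its beta mean, Sst in alpha libraries 3.23% of its delta mean, and Gcg in delta libraries 8.72% of its alpha mean. Summed RPKM of 4 endothelial markers stayed between 0.639 and 4.77, and that of 6 stellate and smooth muscle markers between 0.977 and 1.79, in every library. Acinar markers varied within the sorts, summing to 152.6 to 7649 RPKM in beta, 61.96 to 2421 in alpha and 361.5 to 552 in delta libraries. The 3 ductal markers summed to 691 to 1803 RPKM in alpha libraries, against 139 to 337 in the others. Nearly all of this sum was Spp1 (690.6 to 1797 RPKM in alpha libraries). Krt19 was highest in beta libraries (mean 7.73 RPKM, against 2.94 in alpha and 1.56 in delta). Sox9 was highest in delta libraries (3.51 RPKM, against 0.152 in alpha and 0.107 in beta). The part of acinar and ductal markers in the values below was not tested. Delta libraries also held 44160 to 44800 RPKM of the PP and epsilon cell markers Ppy, Pyy and Ghrl, nearly all of it Ppy and Pyy, against 808.7 to 1560 in beta libraries. In sorted pools, fewer cells of a type and less RNA per cell cannot be told apart.

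Ucn3 lies on chromosome 13 (3940688 to 3945349, minus strand) and Crhr2 on chromosome 6 (55090049 to 55133016, minus strand) of GRCm38. Crhr1 is on chromosome 11 (104132855 to 104175523, plus strand), Ucn on chromosome 5 (31138063 to 31138829, minus strand), Crh on chromosome 3 (19693401 to 19695396, minus strand) and Crhbp on chromosome 13 (95431371 to 95444924, minus strand). GENCODE lists all 6 as protein coding, and no other annotated gene overlaps any of them. The 250 bases before the outermost start of Ucn3 (chr13:3945350-3945599, minus strand) and of Crhr2 (chr6:55133017-55133266, minus strand) are shown because these genes had opposite patterns in beta and delta cells. They are RefSeq promoter sequences of GRCm38.p6, written 5′ to 3′ on the gene's strand, and capitals mark matches to the motifs named after them.
Ucn3: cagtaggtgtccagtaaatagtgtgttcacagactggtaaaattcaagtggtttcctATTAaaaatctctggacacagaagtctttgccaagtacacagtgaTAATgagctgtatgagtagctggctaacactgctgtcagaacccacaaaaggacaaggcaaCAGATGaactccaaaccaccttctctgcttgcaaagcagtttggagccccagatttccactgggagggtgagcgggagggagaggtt
Crhr2: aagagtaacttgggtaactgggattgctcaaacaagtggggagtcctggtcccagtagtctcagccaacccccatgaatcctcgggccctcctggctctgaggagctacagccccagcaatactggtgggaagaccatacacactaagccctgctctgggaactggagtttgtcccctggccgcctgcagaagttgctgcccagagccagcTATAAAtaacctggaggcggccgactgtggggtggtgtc

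GC content was 46.4% for the Ucn3 stretch and 57.6% for that of Crhr2, against a median of 52.4% over 32851 promoters. Letters were searched on both strands. The Ucn3 stretch holds the E-box CAGATG, a type bound by NEUROD1, with its first base 87 bases before the start, and the short homeodomain core TAAT at 193 and 148 bases before it. The Crhr2 stretch holds TATAAA at 39 bases before the start. Shares of all promoters with these letters were 14.4% for CAGATG, 54.9% for TAAT and 12.4% for TATAAA. Neither stretch holds the cyclic AMP response element TGACGTCA (1.55% of promoters), its core TGACG (17.8%, which the longer motif contains), the Maf-type core TGCTGA (16.1%) or TAATTA (4.84%, which contains TAAT). The matches describe letters in these windows, and Crhr2 has further annotated starts inside the gene that they do not cover. RefSeq sequences were found for 5 of the 6 genes, and Crh was the one without an entry.

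Ucn3 was a gene of beta cells in these libraries. The beta libraries 1 to 5 (male, female, male, female, female) held 359, 426, 285, 204 and 222 RPKM of Ucn3, from 7007 to 15399 reads each. The delta libraries held 2.85 RPKM in the male and 3.79 in the female, from 85 and 104 reads. In the alpha libraries 1 to 3 (male, male, female) it stood at 2.43, 2.85 and 2.37 RPKM, from 60, 71 and 61 reads. Every beta library was thus far above every delta and alpha library, and the delta and alpha values met at the male delta library and alpha library 2.

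The mean of Ucn3 was 299 ± 93.5 RPKM in the beta group (SD, n = 5), against 3.32 ± 0.667 in the delta group (SD, n = 2) and 2.55 ± 0.260 in the alpha group (SD, n = 3). By mean RPKM it ranked at place 87 of 19213 genes in beta cells, and at places 10158 and 10089 in delta and alpha cells. The beta mean was 90.2 times the delta mean (95% interval 79.0 to 106) and 117 times the alpha mean (102 to 137), where the intervals come from pooled reads and cover counting error only. On the log2(RPKM + 1) scale, tested with limma in 1 fit of all 10 libraries with sex as a term, Ucn3 was lower in delta than in beta cells by -6.08 (SE 0.27, adjusted p = 2.28e-07). At an adjusted p under 0.05, 50.7% of the 12700 genes tested were called in this comparison. Alpha against beta cells gave -6.37 (SE 0.24, limma adjusted p = 7.77e-08), in a comparison with 54% of genes called. Both comparisons use the same 5 beta libraries. The order of levels was beta, delta, alpha, and the last 2 did not differ beyond their spread (log2 difference 0.29, SE 0.29, limma adjusted p = 0.467, with 38% of genes called between delta and alpha cells). The sign of this difference turned (-0.38, limma adjusted p = 0.0782) when beta libraries were blocked with the delta or alpha library of the same sex and the neighbouring number in its title, a pairing that the labels do not state.

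**Figure D1:**
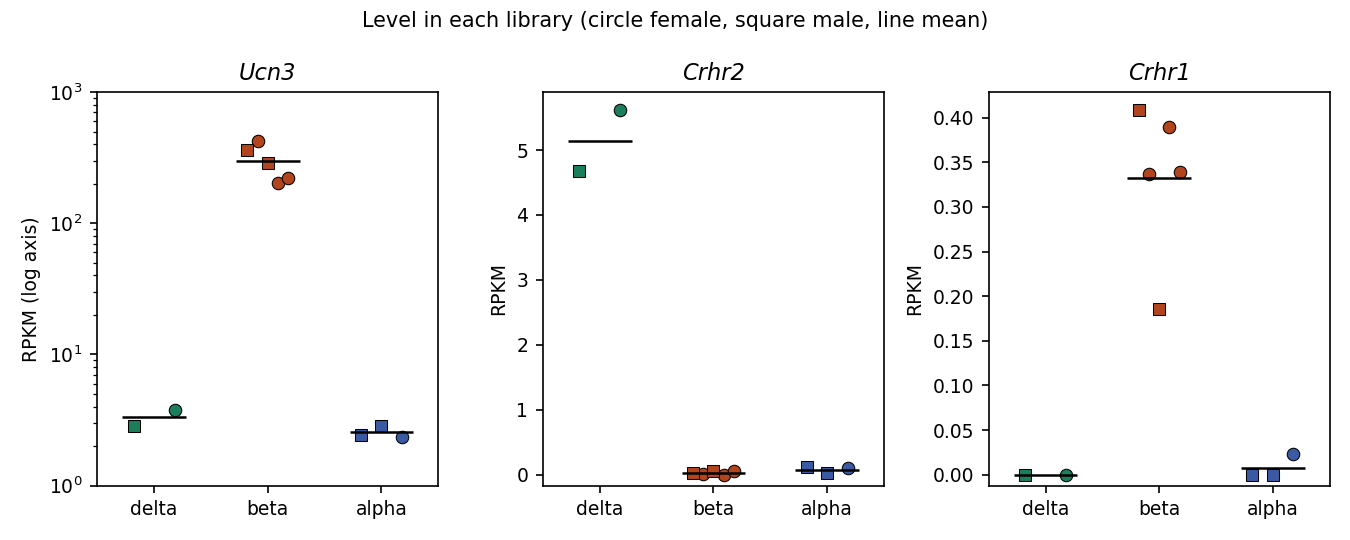
RPKM of Ucn3 (log axis), Crhr2 and Crhr1 (linear axes) in each of the 10 libraries, grouped by cell type, with circles for female and squares for male pools and a line at the group mean. Ucn3 lies between 204 and 426 RPKM in beta libraries and below 4 elsewhere, Crhr2 above 4 RPKM in delta libraries only, and Crhr1 at or below 0.408 RPKM throughout.

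The low Ucn3 level in delta and alpha libraries was set beside beta cell markers measured there. Delta libraries held 1.11% of the beta mean of Ucn3 (0.951% and 1.27%), against 1.02% for Ins1, 1.03% for Ins2 and 1.10% for Mafa, the insulin gene activator of mature beta cells. In alpha libraries the shares were 0.852% for Ucn3, 0.692% for Ins1, 0.752% for Ins2 and 0.820% for Mafa. Ucn3 thus stood at nearly the same small share of its beta level as the insulin genes did. Per 1000 RPKM of Ins1, Ucn3 came to 7.49 and 6.56 RPKM in the delta libraries, to 5.37 to 8.26 in the beta libraries and to 7.14 to 8.28 in the alpha libraries, so the ratio covered one overlapping range in all sorts. Ins1 and Ins2 are near-identical, and how reads were divided between them is not stated by the labels or notes. Which cells of the delta and alpha sorts the Ucn3 reads came from was not tested. Summed RPKM of 4 immune cell markers also differed between the sorts, at 76.6 to 136 in beta against 15.2 to 17.8 in delta and 9.52 to 27.4 in alpha libraries, and their part in the Ucn3 values was not tested.

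Other beta cell markers did not all share this level. The taste-type cation channel gene Trpm5 stood at 2.43% of its beta mean in delta and 0.664% in alpha libraries, the glucose-6-phosphatase gene G6pc2 at 1.30% and 2.56%, and the glucose transporter gene Slc2a2 at 2.49% and 1.42%. Higher shares were found for the oxidoreductase gene Ero1lb (5.75% and 9.75%) and the transcription factor gene Nkx6-1 (7.0% and 9.15%). Genes known from more than 1 islet cell type were far higher: in delta libraries Iapp stood at 52.2% and Pdx1 at 76.5% of the beta mean, and the zinc transporter gene Slc30a8 in alpha libraries at 216%. Summed RPKM of the 12 beta markers was 266600 to 495100 in the beta sort, 31790 to 32580 in the delta sort and 4515 to 5373 in the alpha sort, and none of the 12 was at 0. Most of the delta sum was Iapp, at 28800 to 29090 RPKM. It stood at 2098 to 2599 RPKM in alpha and 51610 to 63050 RPKM in beta libraries, so these sums do not measure beta cell content.

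**Figure D2:**
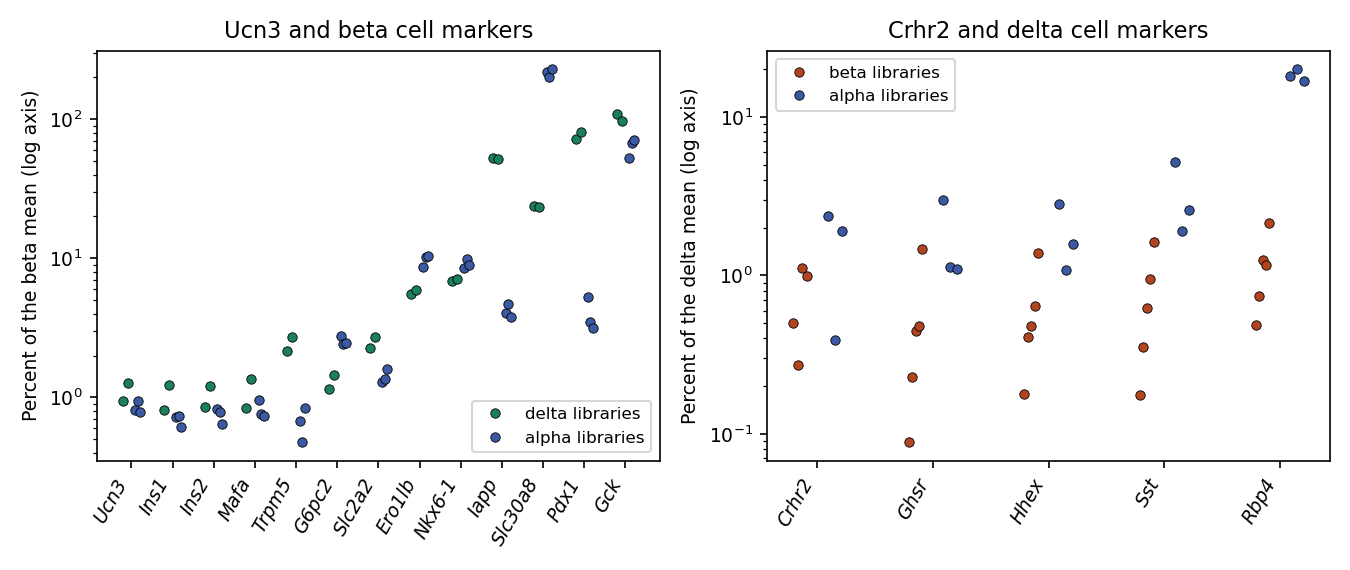
Each library's RPKM as a percent of the mean in the cell type that defines the gene (log axis), for Ucn3 and 12 beta cell markers in delta and alpha libraries (left) and for Crhr2 and 4 delta cell markers in beta and alpha libraries (right). Ucn3 sits with Ins1, Ins2 and Mafa near 1%, and Crhr2 sits with Hhex, Ghsr and Sst. Crhr2 in beta library 4 is 0 and cannot be drawn on this axis.

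Sex did not separate Ucn3 values. In beta libraries the female mean was 284 RPKM (n = 3) and the male mean 322 RPKM (n = 2), and the values overlapped. The male minus female difference over all cell types was 0.09 on the log2 scale (SE 0.21, limma adjusted p = 0.890), where 0.0472% of all genes were called. Crhr2 likewise gave -0.04 (limma adjusted p = 0.865). Delta cells had 1 library per sex.

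The genes whose pattern over the 10 libraries was most like that of Ucn3 were the insulin genes and a few less abundant genes. By Pearson correlation of log2(RPKM + 1) among 12699 other tested genes, these were Ins1 (r = 0.998), Angptl7, which encodes an angiopoietin-like secreted protein (0.998), Ctss, which encodes the protease cathepsin S (0.998), Ins2 (0.998) and Fam151a (0.997). Their beta means were 46780 RPKM for Ins1, 10.8 for Angptl7, 14.7 for Ctss and 37.2 for Fam151a, with 1.03 RPKM or less in delta and alpha cells for the last 3. The 10 points fall into cell types and share their libraries, and 784 genes had r above 0.9, so the order among the leading genes is a description. Immune cell markers were also higher in the beta sort, and their part in these correlations, that of Ctss included, was not tested.

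The other peptides of the family were close to absent from all sorts. Ucn was above 0 only in the female delta library (0.0836 RPKM). Crh was above 0 only in beta library 5 (0.0284 RPKM), and the related Ucn2 only in alpha library 3. Each of these values was taken as 1 read, because a value in a single library does not fix both the gene length and the count. With lengths set this way, 3 reads of Crh over a group correspond to about 0.0598 RPKM for delta, 0.0196 for beta and 0.0454 for alpha cells. For Ucn they correspond to about 0.122, 0.0401 and 0.0931 RPKM. Any Crh or Ucn transcript was therefore not detectable above these levels, while Ucn3 in beta cells stood at 299 RPKM.

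Crhr2, the receptor of urocortin 3, was found in delta cells. The delta libraries held 4.67 RPKM (male) and 5.61 RPKM (female), from 278 and 307 reads. In beta libraries 1 to 5 it stood at 0.0259, 0.0139, 0.0574, 0 and 0.0509 RPKM, from 2, 1, 3, 0 and 4 reads. Alpha libraries 1 to 3 gave 0.122, 0.0201 and 0.0973 RPKM, from 6, 1 and 5 reads. Both delta libraries were above all others, and the beta and alpha ranges overlapped.

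The mean of Crhr2 was 5.14 ± 0.666 RPKM in the delta group (SD, n = 2), against 0.0296 ± 0.0243 in the beta group (SD, n = 5) and 0.0798 ± 0.0532 in the alpha group (SD, n = 3). The delta mean was 174 times the beta mean (95% interval for counting error 96.4 to 374) and 64.4 times the alpha mean (36.4 to 125). On the log2(RPKM + 1) scale Crhr2 was higher in delta than in beta cells by 2.58 (SE 0.10, limma adjusted p = 1.01e-07) and than in alpha cells by 2.50 (SE 0.11, limma adjusted p = 5.25e-07). The share of genes called higher in delta cells was 37.4% against beta and 32.1% against alpha cells. This scale understates a difference between values below 1, and with a pseudocount of 0.1 the delta against beta difference was 5.35. Voom on the recovered reads gave 7.49. Crhr2 passed the filter of at least 1 RPKM in at least 2 libraries only through the delta libraries, so it had to differ to be tested, and it was not tested when either delta library was left out. The order was delta, alpha, beta, and alpha and beta did not differ beyond their spread (log2 difference 0.08, SE 0.09, limma adjusted p = 0.456). The RPKM steps give a gene length of 2945 bases for Crhr2, against 5115 bases of exon in GENCODE M21, so its level beside other genes depends on the gene model, while its ratios between cell types do not.

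Relative to its delta mean, Crhr2 came to 0.576% in beta and 1.55% in alpha libraries. The hormone gene Sst stood there at 0.746% and 3.23%, the delta cell transcription factor gene Hhex at 0.618% and 1.82%, and the ghrelin receptor gene Ghsr at 0.542% and 1.74%. Rbp4, the gene of the retinol carrier, was at 1.16% in beta but at 18.2% in alpha libraries. Ppy and Pyy, the PP cell markers, were also highest in the delta sort, and with Ghrl they summed to 9600 to 15250 RPKM in the alpha sort. The epsilon cell marker Ghrl itself averaged 1.34 RPKM in delta, 4.55 in alpha and 0.549 in beta libraries. The 3 Schwann cell markers summed to 9.92 to 10.2 RPKM in delta, 4.80 to 5.19 in alpha and 2.13 to 2.89 in beta libraries. Their part in the Crhr2 values was not tested. From which cells the 10 Crhr2 reads of the beta libraries and the 12 of the alpha libraries came was not tested.

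The genes most like Crhr2 over the 10 libraries were Myo7b, a brush border myosin gene (r = 0.9996), 5930403L14Rik (0.999), the synaptotagmin gene Syt6 (0.999), the F-box gene Fbxl7 (0.999) and the zinc finger gene Zfp521 (0.999). Their delta means were 5.63, 4.32, 3.37, 2.78 and 2.10 RPKM, with 0.162 RPKM or less in beta and alpha cells. Correlations above 0.9 were found for 699 genes, and the points again fall into cell types.

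Crhr1, the type 1 receptor gene, was detected at a low level in beta cells. The beta libraries 1 to 5 held 0.408, 0.337, 0.186, 0.390 and 0.340 RPKM, from 26, 20, 8, 22 and 22 reads. No read was found in either delta library, and alpha libraries held 0, 0 and 0.0236 RPKM, the last from 1 read. All 5 beta libraries were above every other library. The beta mean was 0.332 ± 0.0876 RPKM (SD, n = 5), and 3 reads over the delta group would be 0.0319 RPKM, or 9.60% of it. The beta mean was 10.4 times this level of 3 reads, a ratio that takes the beta mean as exact and leaves out the spread between libraries. Against alpha cells the ratio of pooled reads was 42.2 (95% interval for counting error 7.41 to 1685). Immune cell markers were also highest in the beta sort, with Ptprc at 0.333 RPKM there, 0.00437 in delta and 0.00337 in alpha libraries. Their part in the Crhr1 values was not tested.

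Crhr1 lay below the filter and was not part of the limma fit. An exact permutation test over libraries, two-sided, gave p = 0.0357 for alpha against beta cells (difference in mean log2(RPKM + 1) -0.40), which is the smallest p that 3 against 5 libraries allow. For delta against beta cells the exact permutation p was 0.0952 (difference -0.41), again the smallest possible, so 2 against 5 libraries cannot reach 0.05. These p-values are not adjusted. The same test on Ucn, Crh and Crhbp, also below the filter, gave no p under 0.05 (lowest 0.143, Crhbp between alpha and beta cells). Crhr1 was called in a limma fit with no filter on low values, added after the data were seen. There the delta against beta difference was -0.41 (adjusted p = 0.00101, with 37.6% of 19213 genes called and 10.2% called higher in beta cells) and the alpha against beta difference -0.39 (adjusted p = 0.000598, with 41.2% called and 22.2% higher in beta cells). With a pseudocount of 0.1 the differences in means were -2.08 and -1.98.

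Setting the receptors side by side per length, the 2 types were highest in different sorts: Crhr2 at 5.14 RPKM in the delta sort, and Crhr1 at 0.332 RPKM in the beta sort. Ucn3 in beta cells, at 299 RPKM, was the only one of the 6 genes above 6 RPKM in any group. Crhbp, whose protein binds CRF and urocortin, had 5 reads in all beta libraries, with 1 or 2 reads in 4 of the 5, 1 read in the female delta library and none in alpha cells. Its highest value was 0.0454 RPKM, under the level of 3 reads in that library (0.0687 RPKM), and no fold is given.

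The other class B peptide hormone receptors that could be tested had their order between beta and delta cells opposite to that of Crhr2. Of 13 listed receptors of the secretin family, 12 were in the table and 5 passed the filter. By limma, each of these 5 was called lower in the delta group when set against beta cells, with a median log2 difference of -1.31 against 0.25 over all genes, and 13.3% of all genes were called in that direction. With no filter on low values 4 were lower and 2 higher, beside 1954 and 5273 of all 19213 genes. With either delta library left out, fewer of these receptors and fewer of all genes were called lower than with all 10 libraries. Glp1r, the receptor of glucagon-like peptide 1, averaged 151 ± 38.2 RPKM in beta libraries, against 39.9 ± 6.23 in delta and 2.47 ± 0.603 in alpha libraries (delta against beta -1.82, SE 0.18, limma adjusted p = 3.96e-05). Its alpha against beta difference was -5.32 (SE 0.16). Gcgr, the glucagon receptor gene, averaged 5.62, 15.5 and 0.264 RPKM in delta, beta and alpha cells, with -1.31 between delta and beta and -3.73 between alpha and beta cells.

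Gipr, the receptor of the incretin GIP, averaged 24.2 ± 5.60 RPKM in beta libraries, against 13.7 ± 4.45 in delta and 19.7 ± 4.66 in alpha libraries. Its delta against beta difference of -0.78 (limma adjusted p = 0.0360) was lost without the female delta library (-0.37, adjusted p = 0.422), without beta library 2, 3 or 5, without alpha library 2, and with no filter. Vipr1, a receptor of vasoactive intestinal peptide, was lower in delta (6.15 RPKM) than in beta cells (20.0 RPKM) by -1.53 (SE 0.13), and stood at 23.8 RPKM in alpha cells. The related Vipr2 was lower in delta (0.607 RPKM) and alpha (0.157 RPKM) than in beta cells (1.31 RPKM), and its delta call was lost when either delta library was left out. Vipr2 passed the filter only through the beta libraries, where it is high, so it had to differ. The receptor genes Glp2r, Sctr, Adcyap1r1, Pth1r, Pth2r, Calcr and Calcrl had group means of 0.361 RPKM or less. Between alpha and beta cells, 3 of the 5 tested receptors were called lower in alpha (30.3% of all genes) and none higher by limma at the deposited scaling, and Vipr1 became higher there with library totals that leave out hormone reads (0.37, adjusted p = 0.0443) and without beta library 2 (0.34, adjusted p = 0.0184).

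**Figure D3:**
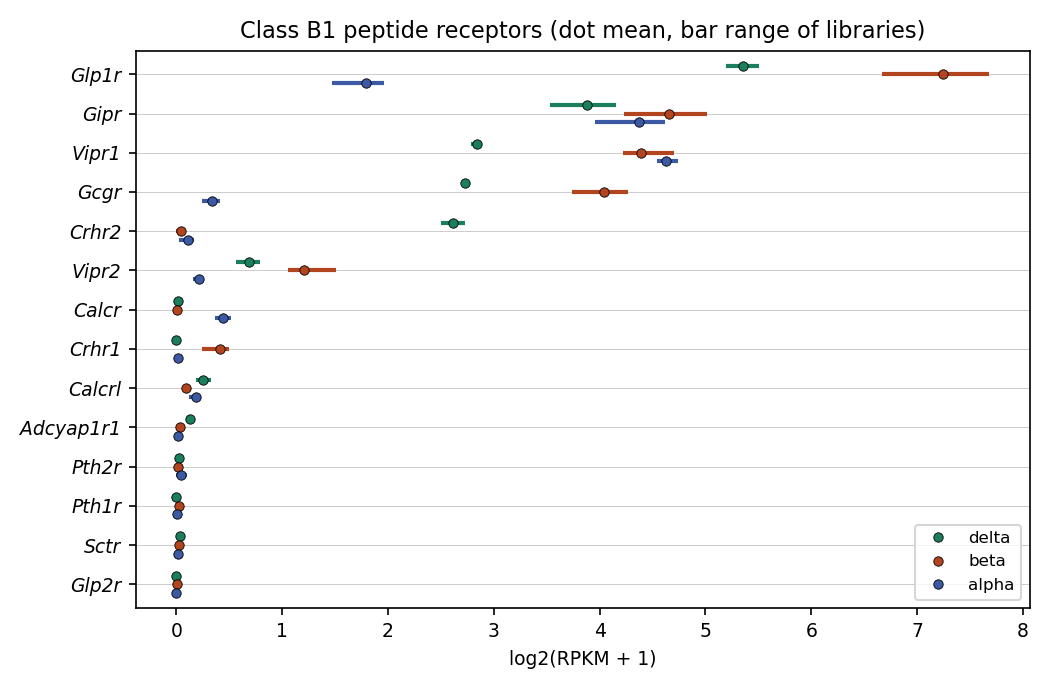
Levels of Crhr1, Crhr2 and 12 related peptide hormone receptors as log2(RPKM + 1), with a dot at the mean RPKM of each cell type and a bar from the lowest to the highest library. Crhr2 is highest in delta cells, while the 5 tested receptors Glp1r, Gipr, Vipr1, Gcgr and Vipr2 all lie higher in beta than in delta cells.

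Crhr2 and Crhr1 couple to Gs, whose alpha subunit (Gnas) activates adenylyl cyclases, and cyclic AMP then acts through protein kinase A and the EPAC exchange factors. Of 34 listed genes of this pathway 30 were tested. Between delta and beta cells 11 were called higher in delta and 4 lower, with a median log2 difference of 0.16 against 0.25 over all genes. The 11 of 30 are near the background of 37.4%. With median-ratio scaling, which moved the median of all genes from 0.25 to 0.01, the counts were 8 higher and 10 lower. Over all 12683 genes then tested, 3144 were higher and 3101 lower. Fewer of the list, and also fewer of all genes, were higher with either delta library left out, when Adcy2, Adcy8, Rapgef3 and Arrb1 were not tested. Between alpha and beta cells 7 were higher in alpha and 13 lower (23.7% and 30.3% of all genes). Without alpha library 3, 8 were lower, beside 2788 of all 12612 genes tested. Between delta and alpha cells 12 were higher in delta and 4 lower (32.1% and 5.89% of all genes). Under median-ratio scaling 8 were higher and 5 lower, beside 1827 and 1398 of all 12683 genes. With either delta library left out, fewer of the list and fewer of all genes were again higher than with all 10 libraries.

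Some genes of the cyclic AMP cascade differed strongly between the cell types. Gnas averaged 168 ± 13.2 RPKM in beta libraries, against 690 ± 61.9 in delta and 772 ± 36.1 in alpha libraries, with no overlap between beta (145.6 to 178 RPKM) and the others (645.7 RPKM or more). Its log2 difference was 2.05 between delta and beta cells (SE 0.09, limma adjusted p = 2.26e-07) and 2.23 between alpha and beta cells (SE 0.08). The Gnas locus also holds imprinted and antisense transcripts, and their reads were not separated here. Gnai1, an inhibitory alpha subunit gene, was highest in alpha cells (42.5 RPKM against 6.75 in delta and 4.02 in beta), higher there than in beta cells by 3.19 (SE 0.27). Gnai2, another inhibitory subunit gene, was highest in beta cells (516 RPKM against 287 in delta and 149 in alpha).

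Adenylyl cyclase genes split by cell type. Adcy8, a calcium-stimulated cyclase gene, stood at 7.36 and 7.47 RPKM in delta libraries, at 0.0378 to 0.164 RPKM in beta and at 0.106 to 0.250 RPKM in alpha libraries. It was higher in delta than in beta cells by 2.94 (SE 0.09, limma adjusted p = 5.49e-08) and than in alpha cells by 2.83 (SE 0.10). Adcy2 followed the same order, at 3.62 RPKM in delta cells against 0.0484 in beta and 0.113 in alpha cells (2.13 and 2.07 higher in delta). Adcy5, in contrast, was highest in alpha cells at 1.94 RPKM, with 0.899 in delta and 0.0588 in beta cells. Adcy6 had the highest mean of the cyclase genes in all 3 types, at 51.7 RPKM in delta, 41.8 in alpha and 19.9 in beta cells. Adcy2 and Adcy8, like Crhr2 and also Rapgef3 and Arrb1, passed the filter through the delta libraries alone. Adcy5 passed it through the alpha libraries alone.

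Below the cyclases, the EPAC genes differed from each other. Rapgef3, which encodes EPAC1, stood at 8.19 and 9.40 RPKM in delta libraries, against 0.0735 to 0.186 in beta and 0.469 to 0.912 in alpha libraries. Its log2 difference was 3.10 for delta against beta (SE 0.12, limma adjusted p = 1.49e-07), 2.51 between delta and alpha, and 0.60 between alpha and beta cells. Rapgef4, which encodes EPAC2, stood at 16.7, 15.5 and 14.3 RPKM in delta, beta and alpha cells and was not called between delta and beta cells (0.14, limma adjusted p = 0.484), with a negative sign under median-ratio scaling (-0.13) and with totals that leave out hormone reads (-0.077). Prkar2b, a regulatory subunit gene of protein kinase A, was lower in alpha (5.25 RPKM) than in beta cells (19.1 RPKM) by -1.59 (SE 0.20).

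Genes that turn off or redirect such receptors also differed. The arrestin gene Arrb1 averaged 3.66 ± 0.188 RPKM in delta libraries, against 0.582 ± 0.0511 in beta and 0.403 ± 0.0770 in alpha libraries, and was higher in delta than in beta cells by 1.56 (SE 0.09, limma adjusted p = 1.54e-06). Its relative Arrb2 had the opposite order, with means of 7.12 RPKM for delta against 14.9 for beta and 17.6 for alpha cells (-0.98 between delta and beta, SE 0.10). Grk5, a receptor kinase gene, was highest in beta cells (12.5 RPKM against 2.05 in delta and 5.05 in alpha), with -2.11 between delta and beta and -1.09 between alpha and beta cells. Ramp2, which encodes an accessory protein of class B receptors, averaged 19.0 RPKM in beta cells, against 13.7 in delta and 2.18 in alpha cells. It was lower in alpha than in beta cells by -2.62 (SE 0.13), while its delta against beta call (-0.42, limma adjusted p = 0.0384) was lost with a pseudocount of 0.1, with no filter, and without any of delta library 1 or 2, beta library 1, 2 or 4, or alpha library 3.

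**Figure D4:**
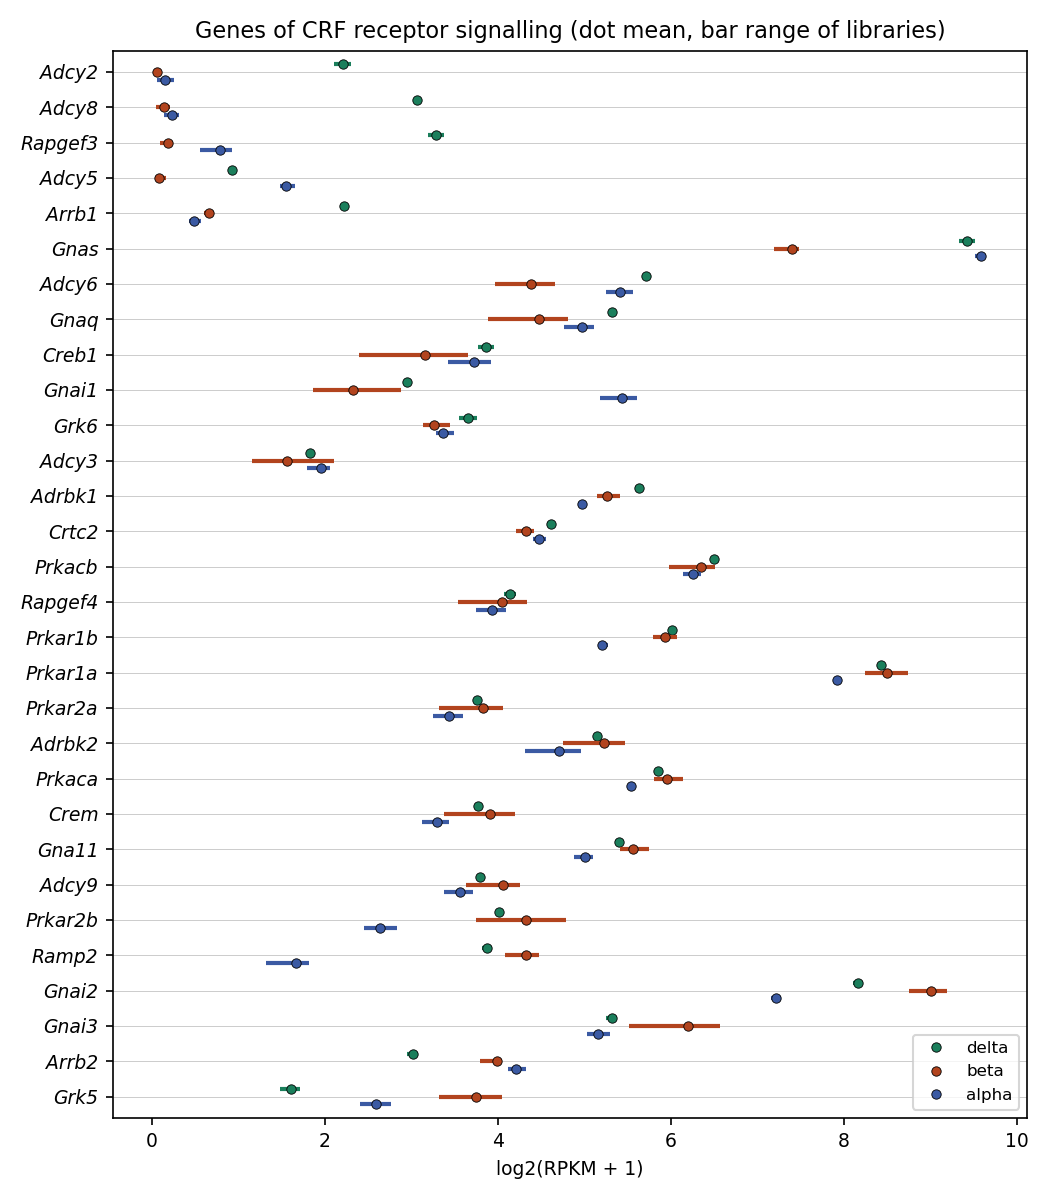
Levels of the 30 tested genes of CRF receptor signalling as log2(RPKM + 1), ordered by the ratio of delta to beta means, with a dot at the mean of each cell type and a bar over its libraries. Adcy2, Adcy8 and Rapgef3 at the top have delta means of 3.62, 7.42 and 8.79 RPKM and beta means under 0.15, and Grk5 at the bottom is highest in beta cells.

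Urocortin 3 is cut from a longer precursor and stored in dense granules, so the genes of prohormone processing were read beside it. Of 10 listed genes, 4 were called higher and 4 lower in the delta group against beta cells, and 3 higher and 5 lower in the alpha group against beta cells. Over all genes the shares called higher and lower were 37.4% and 13.3% in the former comparison and 23.7% and 30.3% in the latter. With median-ratio scaling, with totals that leave out hormone reads, or with no filter, 1 was higher in delta cells. Over all genes these settings called 3144 of 12683, 3454 of 13106 and 5273 of 19213 higher. Without beta library 3 there were 2, beside 4841 of 12670 genes. With either delta library left out, fewer of the list and fewer of all genes were higher than with all 10 libraries. Pcsk1, which encodes the prohormone convertase PC1/3, had the largest differences of the list in both comparisons with beta cells: 250 ± 52.4 RPKM in beta libraries, against 28.8 ± 1.95 in delta and 3.16 ± 0.207 in alpha libraries. Its log2 difference was -3.02 between delta and beta (SE 0.16, limma adjusted p = 6.26e-07) and -5.82 between alpha and beta cells (SE 0.14). Pcsk2, the gene of the convertase PC2, was high in all types, at 1028, 752 and 1164 RPKM in delta, beta and alpha cells. Pam, which encodes the enzyme that amidates peptide ends, stood at 522, 367 and 394 RPKM. The delta against beta calls of Pcsk2 (0.48), Pam (0.57) and the carboxypeptidase gene Cpe (-0.46) were each lost when either delta library was left out. Those of Pcsk2 and Pam were also lost with median-ratio scaling (0.19 and 0.28), with totals that leave out hormone reads (0.24 and 0.33) and with no filter.

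**Figure D5:**
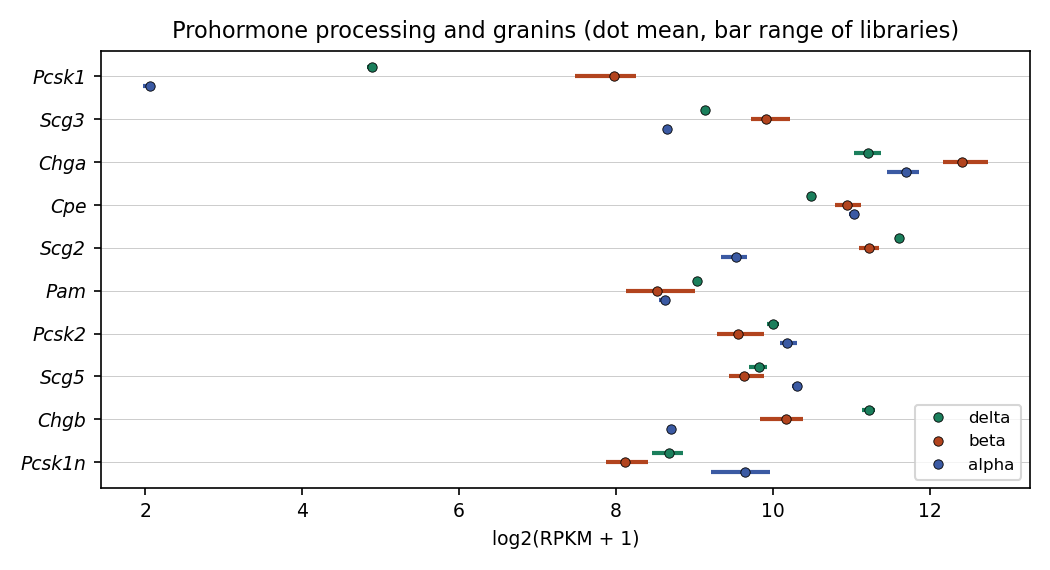
Levels of 10 genes of prohormone processing and granins as log2(RPKM + 1), with a dot at the mean of each cell type and a bar from the lowest to the highest library. Pcsk1 spans the widest range, from 3.16 RPKM in alpha to 250 RPKM in beta cells.

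Somatostatin, whose release urocortin 3 is known to promote, acts back through somatostatin receptors. Of 6 listed genes 4 were tested, namely Sst and 3 receptors. Sstr1 stood at 16.0 and 20.5 RPKM in delta libraries, at 0.0591 to 0.475 in beta and 0.812 to 1.41 in alpha libraries. It was higher in delta than in beta cells by 4.06 (SE 0.13, limma adjusted p = 4.54e-08). Without the delta libraries Sstr1 would not have passed the filter, so it had to be high there to be tested. Sstr2 was highest in alpha cells (17.99 ± 2.05 RPKM, against 2.46 in delta and 0.151 in beta), higher there than in beta cells by 4.05 (SE 0.11). Sstr3 averaged 43.8 RPKM in beta cells, against 42.7 in delta and 23.7 in alpha cells, and was lower in alpha than in beta cells by -0.85 (SE 0.10). Between delta and beta cells it was not called (-0.03, limma adjusted p = 0.841). Sstr3 was thus the most abundant somatostatin receptor gene in beta cells by mean RPKM, and Sstr4 and Sstr5 had group means of 0.0388 RPKM or less.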

How the data were processed

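RNA was measured in 10 libraries of sorted mouse islet cells (delta 2, beta 5, alpha 3), made with the TruSeq RNA kit, version 2, per the labels' protocols, a kit that does not mark strand. The authors deposited RPKM values per gene. Tools and build are STAR 2.4, featureCounts, edgeR 3.12.0 and GRCm38.p3, per the submitters' processing notes. The annotation and the rule for multi-mapping reads were not given in the sources used here. RPKM are shares of a library, so abundant hormone transcripts lower the rest.

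Library totals and reads per gene were recovered from the steps between low values. All values came out whole within 0.05 read, but gene lengths were set so that they would. The test was limma 3.58.1 (R 4.3.3) on log2(RPKM + 1), with a mean-variance trend, cell type and sex as terms and Benjamini-Hochberg adjustment, over the 12700 genes with at least 1 RPKM in at least 2 libraries. A gene was called at an adjusted p under 0.05. The script was tested on simulated data. Crhr1, Ucn, Crh and Crhbp lay below the filter and had exact permutation tests, with no adjustment of p. Counting intervals are 95% and a floor is 3 reads. PCR reads are not independent molecules, so both cover counting error only.

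The labels do not say which beta libraries share islets with which delta or alpha library, and whether every library had its own pool is not stated, so p-values measure the spread between libraries, which may be technical. Named genes are the 6 members, genes of the lists (CRF family, receptor signalling, peptide processing, secretin family receptors, somatostatin loop, glucocorticoid and pituitary axis, and cell type markers) and the 5 genes most like each tested member. Members and lists were chosen with earlier results of these data known. Alternatives were the pseudocount, the filter, the scaling, the sex term, voom and each library left out. GENCODE M21 gave gene positions.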

Additional observations from a re-analysis of the deposited data

Results flagged for a closer look

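In 4 of 35 sets of beta libraries checked, one library lay apart from the other 4 by more than the spread of those would give under Dixon's criterion, which chance meets in about 1 of 20 sets. Crh stood at 0.0284 RPKM in beta library 5, taken as 1 read, and at 0 in the others. A gene above 0 in a single library always meets the criterion, so the chance rate does not apply to Crh. Sstr1 stood at 0.475 RPKM in the same library, against 0.0591 to 0.169 RPKM in the others. Arrb2 was lowest in beta library 4, at 12.95 RPKM against 15.2 to 15.6 RPKM. Sstr3 was highest in beta library 2, at 51.95 RPKM against 39.6 to 43.0 RPKM.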

How the results depend on the processing

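Ucn3 and Crhr2 kept their directions and calls in every comparison of cell types under the pseudocount of 0.1, no filter, median-ratio scaling, totals without hormone reads, no sex term and voom: Ucn3 ranged from -6.48 to -6.07 (delta against beta) and from -6.86 to -6.35 (alpha against beta). With each library left out in turn the ranges were -6.35 to -5.83 and -6.47 to -6.25. The sex difference of Ucn3 ranged from -0.01 to 0.23 and changed sign without beta library 1 (-0.009554) and without beta library 4 (-0.01306). Leaving out a delta library left 1, assumed to vary like the other groups, and Crhr2 was then not tested. The number of genes called ranged from 2881 to 6661 between delta and beta cells and from 2327 to 5383 between delta and alpha cells with 1 library left out. Median-ratio scaling took the share of calls that were higher in delta cells from 73.7% to 50.3% against beta and from 84.5% to 56.7% against alpha cells. Crhr1 between alpha and beta cells ranged from -0.44 to -0.38 with 1 library left out (exact permutation p 0.0571 to 0.0952, the smallest that the remaining libraries allow). Between delta and beta cells Crhr1 was called with no filter (-0.41, limma adjusted p = 0.00101), a fit in which more genes are tested. Of 56 differences of single genes named outside the members, 48 were called, and 878 alternative values gave 831 with the same call, 39 no longer called, 2 newly called and 6 reversed. Those reversed were Rapgef4 between delta and beta cells with median-ratio scaling (-0.13) and without hormone reads (-0.077), Fkbp5 with the same scalings (-0.10 and -0.050), and Sstr3 between the same cells without delta library 1 (0.047) and without beta library 2 (0.031), in a range of -0.11 to 0.047 with 1 library left out; the cause was not tested. The labels state no pairing, but the titles carry running numbers, and 4 beta libraries have a delta or alpha library of the same sex with the neighbouring number. A replicate block by these pairs, added after the data were seen and with 2 residual degrees of freedom, gave Ucn3 differences of -6.51 (delta against beta), -6.13 (alpha against beta) and, with its sign reversed, -0.38 (delta against alpha), and Crhr2 differences of 2.59, 0.0053 and 2.58. It called 7906, 5748 and 5344 genes and changed no call of Ucn3 or Crhr2. Within the pairs Ucn3 in beta libraries was 126 and 112.5 times its delta level and 100.3 and 93.7 times its alpha level. Depth limits Crhr1, Crh, Ucn and Crhbp, which had 98 reads or fewer in any group.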

Other observations

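Genes of the response to stress hormones, the axis in which CRF is best known, were measured in the same cells. The glucocorticoid receptor gene Nr3c1 averaged 19.9 RPKM in beta cells, against 26.9 in delta and 24.9 in alpha cells and was not called between delta and beta cells (log2 difference 0.51, limma adjusted p = 0.184). Nr3c2, the mineralocorticoid receptor gene, averaged 3.62 RPKM in beta cells, against 7.64 in delta and 6.46 in alpha cells, and was higher than in beta cells by 0.95 in delta (SE 0.22, limma adjusted p = 0.00743) and by 0.74 in alpha cells (SE 0.20, limma adjusted p = 0.0124). These calls were lost without delta library 1 and without alpha library 2, respectively. Tsc22d3, a gene induced by glucocorticoids, was lower than its beta mean of 12.4 RPKM in alpha cells (5.13 RPKM, difference -1.16, SE 0.10, limma adjusted p = 1.78e-05) and in delta cells (8.09 RPKM, difference -0.57, lost without delta library 1). Fkbp5, also induced by glucocorticoids, was not called in either comparison (0.17 in delta, limma adjusted p = 0.163, with the sign turned by median-ratio scaling and by totals without hormone reads, and 0.12 in alpha cells, limma adjusted p = 0.275). Hsd11b1, which encodes the enzyme that regenerates active glucocorticoid, had group means of 0.0338 RPKM or less.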
